A study of Homo sapiens with 2 samples.

Results

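The cytosines described here lie in small noncoding RNAs: the RNAs of small ribonucleoproteins, small nucleolar RNAs (snoRNAs), small Cajal body RNAs (scaRNAs), spliceosomal snRNAs, microRNA (miRNA) genes and ribosomal RNA copies. A site was taken when it was nuclear, had a coverage of at least 10 counts, and lay on the same strand in an exon of a gene of one of these types in GENCODE release 44 mapped to GRCh37, while sites in a protein-coding exon of that strand were left out. This gave 660 sites in 37 genes for MCF10A, and 1113 sites in 72 genes in MDA-MB-468, out of 3146911 and 3489803 deposited cytosines and of 8505 annotated small RNA genes. In all 1195 sites were present in at least one line, and 578 were present in both.

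The modified base 5-methylcytosine (m5C) in RNA was measured by bisulfite sequencing of MCF10A, a normal mammary epithelial line, and MDA-MB-468, a breast cancer line, with 1 library per line. Both lines came from ATCC and no treatment of the cells is named. Total RNA of each was poly(A) selected, then kept in sodium bisulfite at 60 degrees for 8 hours and sequenced. Bisulfite turns unmodified cytosine into uracil, so a cytosine that still reads as cytosine is either methylated or was not converted, and the methylation ratio is the share of unconverted counts at a site. With 1 library per line, every p-value below compares the counts of these libraries and not the lines, and the spread between cultures is unknown. Among marker genes, KRT5, KRT17, KRT8, KRT18 and EGFR had covered cytosines in both lines, VIM in MCF10A only, EPCAM and CDH1 in MDA-MB-468 only, and KRT14, ESR1 and PTPRC in neither, although KRT14 and CDH1 are usual markers of MCF10A cells.

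Small noncoding RNAs work mostly in complexes with proteins. RMRP is the RNA of RNase MRP, which takes part in ribosomal RNA maturation, the 7SL RNA is the scaffold of the signal recognition particle (SRP) that directs secretory proteins to the endoplasmic reticulum, and snoRNAs and scaRNAs guide chemical changes of ribosomal and spliceosomal RNA. Cytosine methylation of noncoding RNA is best known in transfer and ribosomal RNA, where enzymes such as those of the NSUN family place it. Most small RNAs have no poly(A) tail, so after poly(A) selection their coverage does not measure their abundance, and it may come in part from longer transcripts that contain them.

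A site was called m5C when its unconverted counts exceeded the background of the library by a one-sided Fisher's exact test at an adjusted p below 0.05 (Benjamini-Hochberg over all kept sites). The background was 1.99% of counts in MCF10A against 1.81% in MDA-MB-468. The sequences below are read from GRCh37 on the RNA strand, 5′ to 3′, with the cytosines called in at least one line in capitals. They are the windows of at most 30 nt that hold the most called cytosines of the RNAs listed, and are shown because they hold the runs of called cytosines and the single ones described below.

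MIR3648, RNA positions 31 to 60, chr21:9825862-9825891, plus strand: CgCggggatCgCCgagggCCggtCggCCgC
MIR3648, RNA positions 108 to 137, chr21:9825939-9825968, plus strand: tgtcccggctgCggtCggCCgcgCtCgagg
MIR3648, RNA positions 138 to 167, chr21:9825969-9825998, plus strand: ggtCCCCgtggCgtCCCCttCCCCgCCggc
AC079949.1, RNA positions 1 to 30, chr12:127650643-127650672, minus strand: CgCtgggaCCagggtCCggtgcggagtgcc
AC079949.1, RNA positions 31 to 57, chr12:127650616-127650642, minus strand: ctttgtcctgggaaaCggggcgCggCC
AL161626.1, RNA positions 1 to 30, chr9:79186731-79186760, plus strand: CgCCgggacCggggtccggggcggagtgcc
RNA5-8SP3, RNA positions 115 to 144, chr9:111754706-111754735, minus strand: acttgtggCCCtgggttcctcCCggggcta
RN7SL471P, RNA positions 134 to 163, chr6:28945385-28945414, plus strand: gtaCtCCCgggggagcCCgggagtaCCagg
RN7SL217P, RNA positions 31 to 60, chr3:49901034-49901063, minus strand: agCtgcggtgggaggatCgtttgagttCag
RN7SL87P, RNA positions 78 to 107, chr5:143520521-143520550, plus strand: tctgggctgtagtacCctatgttgactggg
RMRP, RNA positions 233 to 262, chr9:35657753-35657782, minus strand: accaaccacacggggCtcattctcagcgcg

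In MCF10A 50 of 660 sites (7.58%, 95% Wilson interval 5.79 to 9.85) were called, in 6 genes. In MDA-MB-468 93 of 1113 sites (8.36%, 6.87 to 10.1) were called, in 15 genes. Over all kept exonic and mitochondrial sites the call passed for 0.96% in MCF10A against 0.84% in MDA-MB-468. The median coverage was 39 and 41 at the small RNA sites and 18 in each line at the kept nuclear sites. A lower ratio suffices for a call at higher coverage, and the part of coverage in these shares was not tested. Another called site lay within 10 nt for 47 of the 50 in MCF10A against 82 of the 93 in MDA-MB-468. The gene MIR3648 alone held 34 and 33 of the calls. Neither the spacing of all covered cytosines nor the share for other kept sites was counted, so closeness was not tested. The methylation ratios of the called sites ran from 3.45% to 56.2% in MCF10A, with a median of 19.0%. In MDA-MB-468 they ran from 2.60% to 100%, with a median of 17.8%. A ratio of at least 20% was reached by 24 and 37 called sites. Pooled over all counts of the class, 4.31% (4.21 to 4.42) were unconverted in MCF10A compared with 4.12% (4.07 to 4.17) in MDA-MB-468. These intervals cover counting error only and take sites and counts as independent. AC079949.1 alone gave 97496 of the 153032 counts in MCF10A and 465440 of the 657099 in MDA-MB-468, so the pooled shares mostly describe that gene. The median ratio over the small RNA sites was 0.284% and 0.216%.

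The calls were unevenly spread over the classes. The sequence of 5 annotated miRNA genes matches the unplaced GRCh37 scaffold that carries copies of the ribosomal RNA (rRNA) repeat. Of the called sites, 44 in the MCF10A library and 49 in the MDA-MB-468 library lay in 3 of these 5 genes. Without these 5 genes, 6 of 520 sites (1.15%, 0.530 to 2.49) were called in MCF10A compared with 44 of 969 (4.54%, 3.40 to 6.04) in MDA-MB-468, and the pooled unconverted share was 1.42% and 2.16%. Of the rest, SRP RNA held 2 and 38 called sites, the annotated rRNA copy RNA5-8SP3 3 and 5, and RMRP 1 in each line. 7SK copies, C/D box and H/ACA box snoRNAs, scaRNAs, snRNAs and the other miRNA genes held none.

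**Figure D1:**
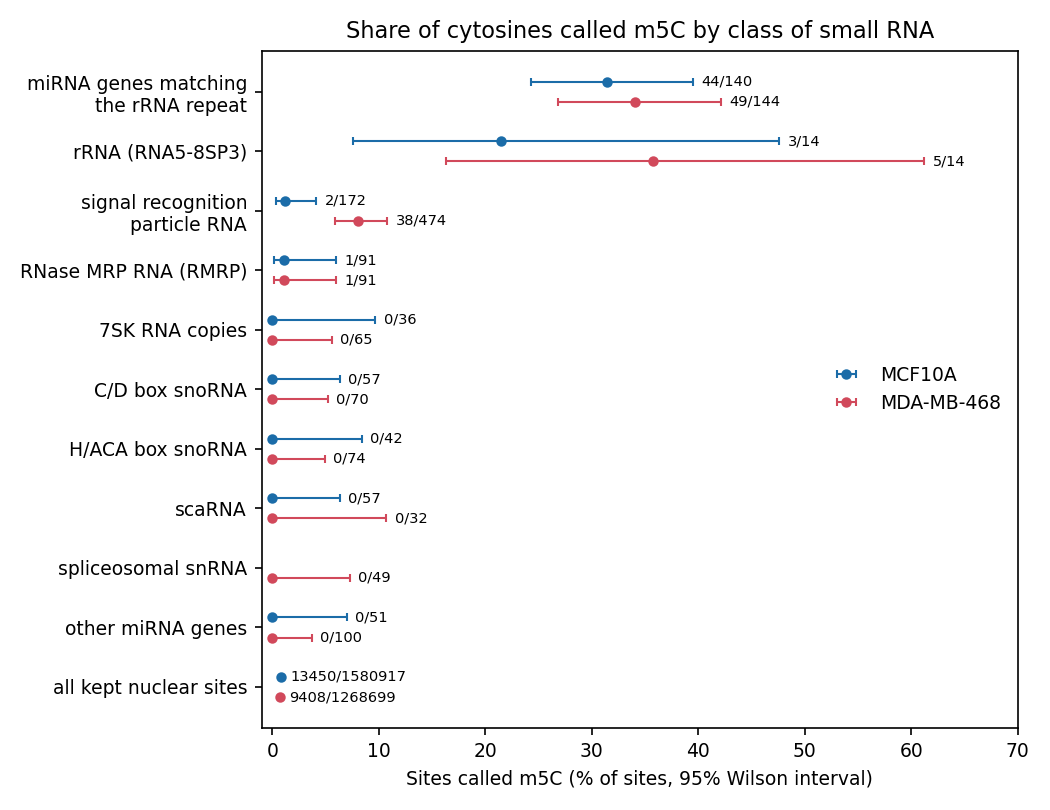
Share of sites called m5C (horizontal axis, % of sites) in each class of small RNA, with 1 point per library, bars for 95% Wilson intervals and the called and tested sites printed beside each point. The miRNA genes matching the rRNA repeat and RNA5-8SP3 stand highest in both lines, SRP RNA is higher in MDA-MB-468 (38/474) than in MCF10A (2/172), and 6 classes are at 0.

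The 5 miRNA genes that match the rRNA repeat were MIR663B (106 of 115 bases identical), MIR3648 (178 of 180), MIR3687 (60 of 61), AC079949.1 (54 of 57) and AL161626.1 (54 of 57). On the scaffold their matches follow in that order from base 107448 to base 118197, the last 2 genes at the same place. MIR3648 and MIR3687 are known to lie in the external transcribed spacer at the 5′ end of the rRNA precursor. The deposited counts do not show which reads at these 5 genes came from the rRNA precursor. Windows that occur elsewhere in the genome surrounded 57 of the 70 sites of MIR3648. They also surrounded 4 of 23 sites in MIR3687 and 9 of 15 in MIR663B, but no site of AC079949.1 or AL161626.1.

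MIR3648 (chr21:9825832-9826011, plus strand) was covered at each of its 70 cytosines in both lines, with a median coverage of 110.5 in MCF10A against 345.5 in MDA-MB-468. Of these, 34 cytosines were called in MCF10A compared with 33 in MDA-MB-468, 33 of them in both. They formed 2 stretches. Over RNA positions 30 to 63, 252 of 1187 counts (21.2%) were unconverted in MCF10A against 567 of 4675 (12.1%) in MDA-MB-468. Over positions 119 to 164 the pooled shares were 880 of 3418 (25.7%) and 1833 of 9713 (18.9%). The 33 cytosines outside these stretches were never called, at 2.17% and 1.87% unconverted. Within 200 nt on either side of the gene all 169 cytosines were deposited as well, at 2.31% and 1.65%. The ratio peaked in the third printed window, at the 4 neighbouring cytosines of positions 141 to 144: position 143 had 77 of 137 counts unconverted in MCF10A (56.2%) against 155 of 348 in MDA-MB-468 (44.5%), and position 144 had 72 of 132 (54.5%) and 168 of 353 (47.6%). The called sites of the middle window were lower, from 32 of 250 (12.8%) and 64 of 725 (8.83%) at position 119 to 78 of 235 (33.2%) and 160 of 738 (21.7%) at position 133. MCF10A had the higher ratio at 55 of the 70 sites, with a median difference of −2.22 percentage points over all 70 (MDA-MB-468 minus MCF10A), although no single site passed the test of the difference between libraries. Over all 578 shared small RNA sites MCF10A had the higher ratio at 238 and MDA-MB-468 at 218. Neighbouring sites share molecules, so the 70 sites are not separate observations.

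The mature miRNA of MIR3648 lies at RNA positions 28 to 48 (chr21:9825859-9825879) and reaches into the first called stretch. Its RefSeq sequence (GRCh38.p14 table), with the seed at bases 2 to 8 in capitals, and that of hsa-miR-663b for comparison, are as follows.

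hsa-miR-3648: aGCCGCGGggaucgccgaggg
hsa-miR-663b: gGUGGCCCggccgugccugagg

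All 6 cytosines of hsa-miR-3648 were called in both lines, 3 of them in the seed, with ratios from 15.3% to 34.0% in MCF10A against 10.4% to 23.2% in MDA-MB-468. Of the cytosines of hsa-miR-663b, 7 were covered and none was called in either line, 3 of them in the seed. The seeds of these miRNAs differ. A RefSeq mature sequence was found for 10 of the 20 miRNA genes with sites, and hsa-miR-3648 was the only one of them with a called cytosine. The counts do not show whether the mature miRNA or a longer precursor carries the unconverted bases.

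MIR3687 (chr21:9826203-9826263, plus strand), downstream on the same precursor, had none of its 23 cytosines called in either line. Its coverage was 241 to 397 in MCF10A against 1224 to 2083 in MDA-MB-468, with medians of 347 and 1764 that exceed those of MIR3648, and its pooled unconverted share was 1.03% (0.828 to 1.28) and 0.794% (0.711 to 0.886), below the background of each library. The 177 cytosines within 200 nt of MIR3687 had 5.12% and 3.87%. In MIR663B (chr2:133014539-133014653, minus strand) 0 of 15 sites were called in each line, which allows a share of up to 20%.

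AC079949.1 (chr12:127650616-127650672, minus strand), a 57-nt annotated miRNA gene with no known function given in the sources used here, had the highest coverage of all small RNA sites, up to 9323 in MCF10A compared with 44316 in MDA-MB-468. All 17 of its cytosines were covered, and 9 were called in MCF10A against 10 in MDA-MB-468. At its 3′ end, position 57 had 1017 of 9032 counts unconverted in MCF10A (11.3%) against 5243 of 42688 in MDA-MB-468 (12.3%), position 56 had 1156 of 9035 (12.8%) and 5474 of 42695 (12.8%), and position 53 had 1241 of 9051 (13.7%) and 5540 of 42744 (13.0%). At its 5′ end, position 1 had 30 of 118 (25.4%) and 148 of 616 (24.03%), and position 3 had 22 of 156 (14.1%) and 136 of 919 (14.8%). The ratio was lower inwards of position 1, with 7.48% and 5.64% at position 10, 6.40% and 5.67% at position 16 and 4.78% and 4.10% at position 17, and 0.729% and 0.661% at position 38. The lines were nearly alike over the 17 sites, with differences between −1.83 and 1.02 percentage points. Pooled over the gene 4.84% and 4.60% of counts were unconverted, and within 200 nt of it 42 and 48 deposited cytosines had 8.77% and 9.47%.

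AL161626.1 (chr9:79186731-79186787, plus strand, inside GCNT1), 89.5% identical to AC079949.1, had 1 of 15 sites called in MCF10A compared with 6 of 19 in MDA-MB-468. At its first 5 cytosines 24 of 542 counts (4.43%) were unconverted in MCF10A, where none was called, and 163 of 3776 (4.32%) in MDA-MB-468, where 4 were called. The coverage of these cytosines was 107 to 109 in MCF10A against 753 to 756 in MDA-MB-468. The highest ratio of the gene was at position 35, with 4 of 12 counts in MCF10A (33.3%) against 24 of 42 in MDA-MB-468 (57.1%). The neighbouring position 34 had a coverage of 76 and 482, so far fewer counts were recorded at position 35 than beside it, for a reason that was not tested.

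**Figure D2:**
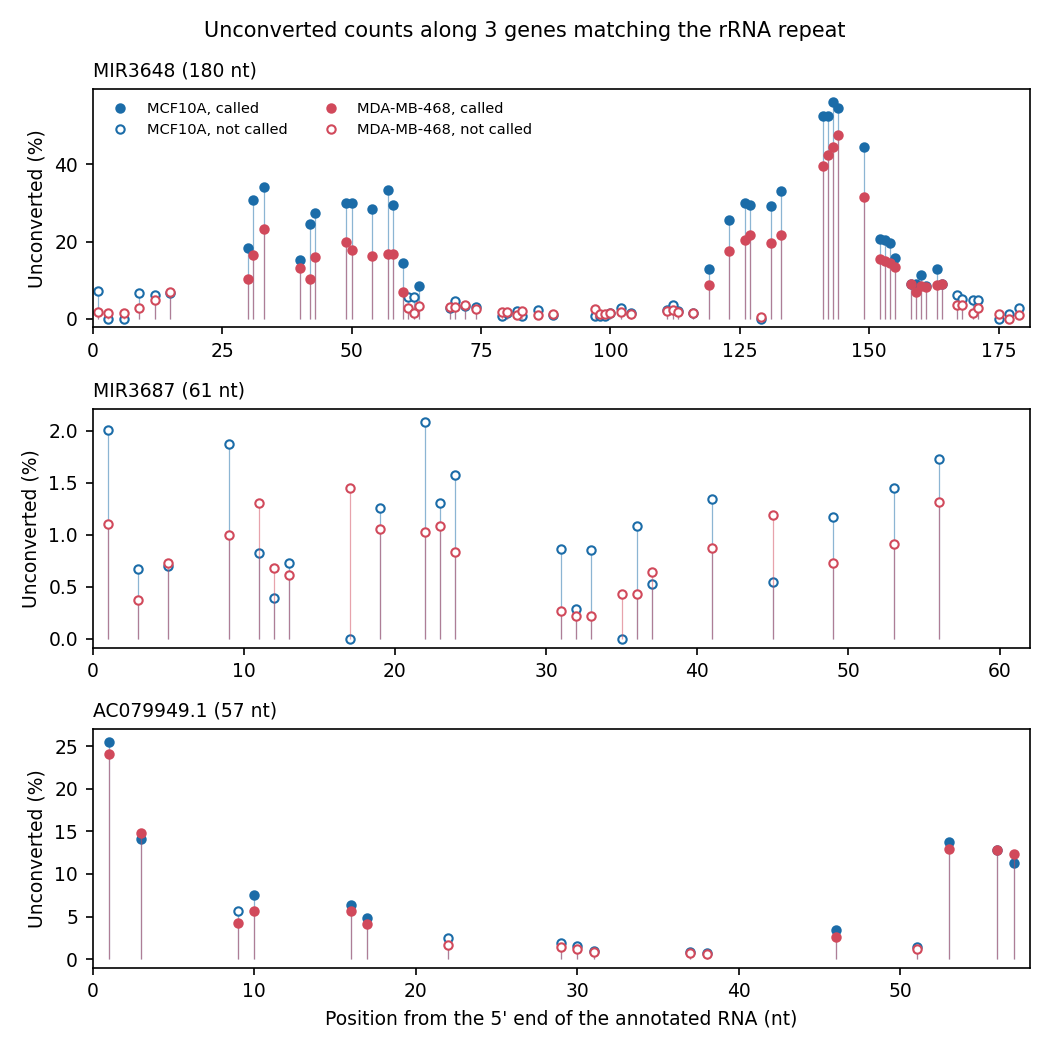
Unconverted share of counts (vertical axis, %) against the position from the 5′ end (nt) in MIR3648, MIR3687 and AC079949.1, with filled points for sites called m5C and open points for sites not called in MCF10A (blue) and MDA-MB-468 (red). MIR3648 shows 2 stretches of called sites that peak at 56.2% in MCF10A against 47.6% in MDA-MB-468, MIR3687 stays at or under 2.08% on its own scale, and AC079949.1 is high at both ends.

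RNA5-8SP3 (chr9:111754689-111754849, minus strand) is an annotated copy of the 5.8S rRNA inside an intron of CTNNAL1, and it did not match the scaffold over 80% of its length at 90% identity. Its called sites lay in positions 123 to 137, where 21 of 240 counts (8.75%) were unconverted in MCF10A compared with 44 of 320 (13.8%) in MDA-MB-468. The called cytosines lay in 2 runs, positions 123 to 125 and 136 to 137, and each of these 5 was predicted to be paired. The cytosines between them at positions 132 and 133 had 0 of 30 unconverted counts in MCF10A against 0 of 40 in MDA-MB-468. The 5 sites reached 10% to 16.7% in MCF10A compared with 15% to 25% in MDA-MB-468. Of the sites called in MDA-MB-468, 3 were called in MCF10A, and no site passed the test of the difference.

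The 7SL RNA of the SRP has many genomic copies, and 860 genes of this class are annotated. Sites were covered in 13 of them in MCF10A against 34 in MDA-MB-468, and called in 1 (RN7SL2) against 10. Pooled over the class, 206 of 9190 counts (2.24%) were unconverted in MCF10A compared with 2073 of 73011 (2.84%) in MDA-MB-468. Over the 172 sites covered in both lines, the median coverage was 34.5 in MCF10A against 241 in MDA-MB-468, and of these sites 2 were called in both and 20 in MDA-MB-468 only. The part of coverage in the larger number of calls was not tested within the class. Copies of this RNA share long stretches of sequence, so reads cannot always be assigned to one of them.

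RN7SL2 (chr14:50329271-50329567, minus strand) is a 7SL gene whose exon also overlaps an annotated long noncoding RNA. Its 16 covered sites lay between positions 242 and 285, with a coverage of 147 to 175 in MCF10A compared with 184 to 231 in MDA-MB-468. The 9 cytosines of positions 257 to 272 had 4.57% to 7.43% unconverted counts in MCF10A against 15.6% to 21.6% in MDA-MB-468. Pooled, 92 of 1575 counts (5.84%, 4.79 to 7.11) were unconverted there in MCF10A compared with 391 of 2079 (18.8%, 17.2 to 20.5) in MDA-MB-468. The stretch was set by sites called in either line, so its shares and intervals are no test of a difference between the libraries. The 7 cytosines beside the stretch had 1.504% and 0.955%. All 9 were called in MDA-MB-468 and 2 in MCF10A, namely positions 263 and 265 with 13 of 175 counts each. Of the 16 sites, 10 lay in windows that occur elsewhere in the genome. The neighbouring sites of one molecule are read together, so they are not independent of each other.

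The test of the difference between libraries (two-sided Fisher's exact test, Benjamini-Hochberg over 812729 shared sites) passed at 5 of the 578 shared small RNA sites, 4 of them higher and 1 lower in MDA-MB-468. Over all shared sites it passed for 0.0202% in the higher and 0.0691% in the lower direction. The 4 higher sites were all in RN7SL2. Position 268 (base 50329300) had 10 of 175 counts in MCF10A against 49 of 231 in MDA-MB-468, with an adjusted p of 0.0101 by Fisher's exact test. Position 267 had 9 of 175 and 46 of 231 (exact test, adjusted p = 0.0119), position 260 had 9 of 175 and 43 of 231 (exact test, adjusted p = 0.0444), and position 258 had 8 of 175 and 42 of 231 (exact test, adjusted p = 0.031). The other 5 cytosines of the stretch had higher ratios in MDA-MB-468 without passing. All 16 RN7SL2 sites also lie in an exon of the long noncoding RNA, and leaving such sites out left 1 of the 5 differences, while leaving out repeated windows left 3. The lower site was position 46 of AC079949.1, with 320 of 9283 counts (3.45%) in MCF10A compared with 1145 of 44073 (2.60%) in MDA-MB-468 (exact test, adjusted p = 0.0138), a difference of −0.849 percentage points at one of the most covered sites of the class.

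RN7SL3 (chr14:50320336-50320632, minus strand), 96.3% identical to RN7SL2, was covered on its other part, up to position 162, so the stretch of RN7SL2 could not be compared with it. In MDA-MB-468 11 of its 40 sites were called, all in positions 15 to 52, where 519 of 3241 counts (16.0%, 14.8 to 17.3) were unconverted. Position 46 had 95 of 361 (26.3%) and position 31 had 59 of 254 (23.2%). The other 28 sites stood at 1.23%. In MCF10A the same stretch had 9 of 189 unconverted counts (4.76%, 2.53 to 8.80) at a coverage of 15 to 26, and none of the 35 sites was called or differed from MDA-MB-468 by the test. The stretch was set by calls in MDA-MB-468 alone, so these shares are no test of a difference between the libraries. In RN7SL2 and RN7SL3 the stretch holds every called site, so the low share beside it is no separate result.

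RN7SL471P (chr6:28945252-28945547, plus strand), a 7SL pseudogene, had sites in MDA-MB-468 only, 68 of them at a coverage of 10 to 30. The 8 called cytosines lay in positions 137 to 160 and had a pooled share above that of any other run in the class, with ratios from 17 of 25 counts (68.0%) at position 150 to 25 of 29 (86.2%) at positions 140 and 141. One cytosine among them, position 149, had 1 of 25 unconverted. Each of the 8 was among the 32 cytosines predicted to be paired, and none of the 36 unpaired ones was called. The 59 sites outside these positions had 17 of 953 counts unconverted (1.78%).

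**Figure D3:**
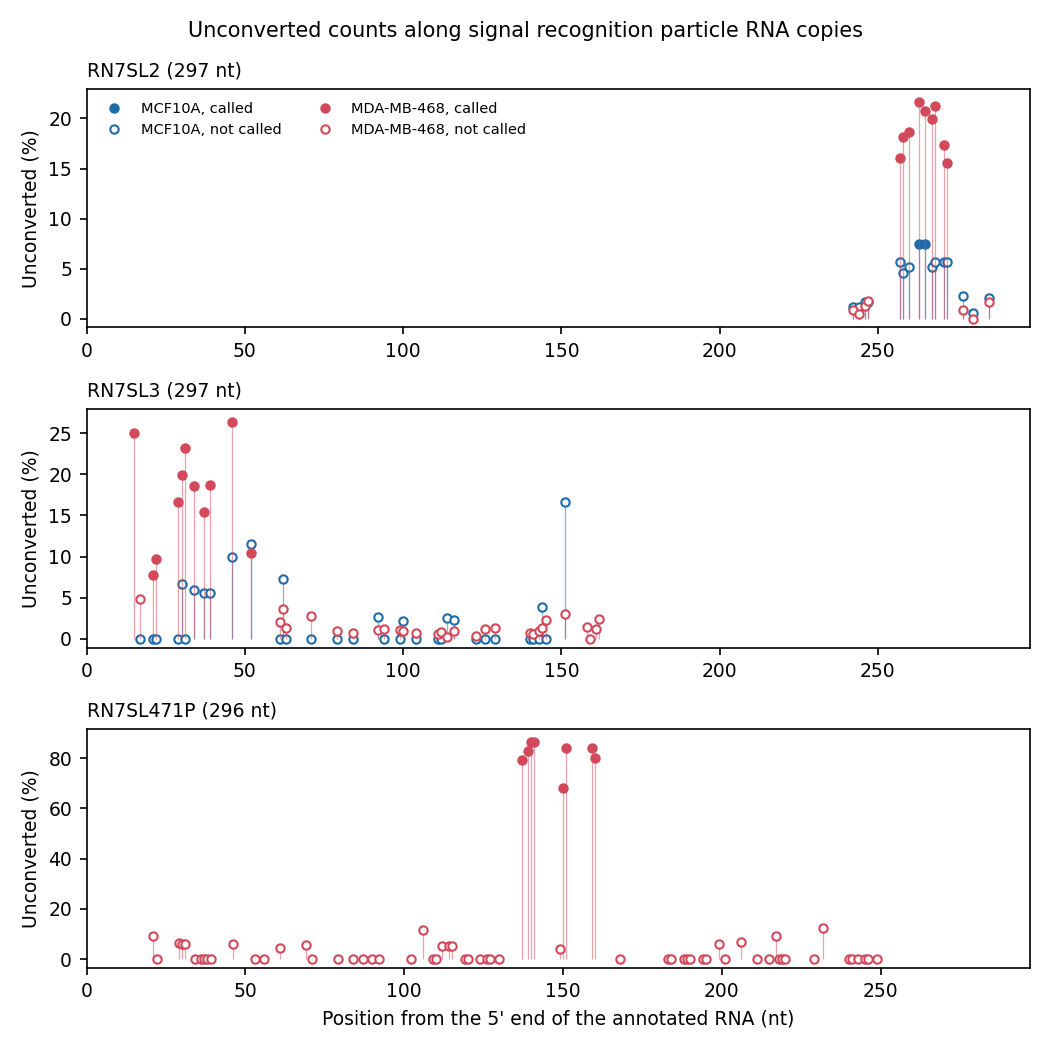
Unconverted share of counts (vertical axis, %) against the position from the 5′ end (nt) in RN7SL2, RN7SL3 and RN7SL471P, with filled points for called and open points for other sites in MCF10A (blue) and MDA-MB-468 (red). Each RNA shows 1 run of called sites in MDA-MB-468, up to 21.6%, 26.3% and 86.2%, and sites outside it are low, the highest being position 151 of RN7SL3 in MCF10A with 3 of 18 counts (16.7%), while parts without points were not covered.

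Calls of 1 to 3 sites were made in other 7SL pseudogenes of MDA-MB-468. RN7SL217P (chr3, minus strand, inside CAMKV) had 34 of 34 counts unconverted at position 33, 10 of 40 at position 48 and 12 of 40 at position 58, while its other 7 sites had 0 unconverted counts. RN7SL87P (chr5, plus strand) had 14 of 14 at position 93 with neighbours at 0 or 1 of 14. RN7SL300P had 2 called sites with 4 of 13, and over its 9 sites 22 of 115 counts were unconverted (19.1%, 13.0 to 27.3). RN7SL47P had 1 called site with 4 of 16, and over its 11 sites 14 of 192 counts (7.29%, 4.39 to 11.9). RN7SL165P reached its call with 39 of 792 (4.92%), RN7SL665P with 6.41% and RN7SL767P with 6.61%. Other copies had no call, among them RN7SL381P with 24 sites at 1.15% and RN7SL220P with 21 at 0.846%. Uncalled copies with higher shares were RN7SL559P with 10 of 158 counts (6.33%, 3.47 to 11.3), RN7SL648P with 5 of 75 (6.67%, 2.88 to 14.7) and RN7SL60P with 7 of 190 (3.68%, 1.80 to 7.41). In MCF10A the uncalled RN7SL4P had 13 of 338 (3.85%, 2.26 to 6.47).

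RMRP (chr9:35657751-35658014, minus strand) gave the most sites of any small RNA, 91 of its 93 cytosines in each line, with a median coverage of 242 in MCF10A against 330 in MDA-MB-468. No cytosine within 200 nt of the gene on its strand was deposited. Pooled, 222 of 20434 counts (1.09%, 0.953 to 1.24) were unconverted in MCF10A compared with 247 of 27845 (0.887%, 0.783 to 1.004) in MDA-MB-468, below the background of each library. A single site was called, the same in both lines: position 248 (base 35657767), with 8 of 29 counts in MCF10A (27.6%) against 6 of 31 in MDA-MB-468 (19.4%). It lay where coverage ended, between position 243 with a coverage of 174 and 236 and position 250 with 19 and 21, and its neighbours on both sides were at 0% to 1.72%. The highest ratio among the remaining 90 sites was 7.14% (1 of 14 counts) in MCF10A, or 5.56% (1 of 18) in MDA-MB-468.

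The 7SK RNA, which holds back transcription elongation, was seen only in pseudogene copies. None of 36 sites in 2 copies was called in MCF10A, nor any of 65 sites in 4 copies in MDA-MB-468, which allows shares of up to 8.33% and 4.62%. Their pooled unconverted share was the lowest of all classes, 4 of 1911 counts (0.209%, 0.0814 to 0.537) and 15 of 4370 (0.343%, 0.208 to 0.566). RN7SKP137, inside NDNF, had 19 sites in each line at 0.374% and 0.257%. RN7SK itself had no deposited site.

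C/D box snoRNAs, mostly guides of ribose methylation, had 0 of 57 sites called in MCF10A against 0 of 70 in MDA-MB-468, which allows up to 5.26% and 4.29%. SNORD17 gave 30 and 31 of them, at 0.480% and 0.853% unconverted counts, and lies inside the annotated genes OVOL2 and SNX5. SNORD3A (the U3 RNA, needed for rRNA processing) had 0 unconverted counts at its 12 sites in MCF10A compared with 0.607% at 14 sites in MDA-MB-468. SNORD104 had 13 of 229 counts (5.68%, 3.35 to 9.47) in MCF10A against 2 of 244 (0.820%, 0.225 to 2.94) in MDA-MB-468, with at most 2 counts at a site in MCF10A and both counts at 1 site in MDA-MB-468, and none was called or passed the difference test. H/ACA box snoRNAs, mostly guides of pseudouridylation, had 0 of 42 and 0 of 74 sites called (up to 7.14% and 4.05%). SNORA73B, inside RCC1, held all 42 in MCF10A as well as 50 of the 74 in MDA-MB-468, at 0.886% and 0.636%.

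The scaRNAs, with 0 of 57 and 0 of 32 sites called (up to 5.26% and 9.38%), were mainly SCARNA17 and, in MCF10A, SCARNA18, which also lie in an exon of the long noncoding RNA SNHG22. SCARNA17 had all 40 of its cytosines covered in MCF10A at 1.62% and 26 in MDA-MB-468 at 0.306%. Spliceosomal snRNA sites were found in MDA-MB-468 only, 49 in 5 genes of which none was called (up to 6.12%). Most lay in the pseudogene copies RNU1-11P, RNU1-42P and RNU2-6P, with 11, 13 and 7 sites. RNVU1-14 held 17, all also in an exon of a long noncoding RNA, and RNVU1-13 held 1. The miRNA genes that do not match the rRNA repeat had 0 of 51 and 0 of 100 sites called (up to 5.88% and 3%), among them MIR641 inside AKT2 with 17 sites in MCF10A, or MIR200A with 10 sites in MDA-MB-468. In MCF10A the sites of AC022819.1 (9), AC026166.1 (14), AL451010.1 (3) and AP003064.2 (2) also lay in exons of processed pseudogenes. In MDA-MB-468 so did those of AC022819.1 (9) and AP003064.2 (1), while those of MIR23A (17), AC010203.1 (13) and MIR27A (2) also lay in long noncoding RNA exons. MIR200A had 12 of 100 counts unconverted (12%, 6.999 to 19.8), up to 30% at a site, with a median coverage of 10. At a median coverage of 20 and 12 at the sites of these miRNA genes only high ratios were detectable: with a coverage of 10 a call needed at least 4 unconverted counts in either line, with 20 it needed 5 in MCF10A against 4 in MDA-MB-468, and with 100 it needed 9 in each.

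Of a list of 20 well-known small RNAs, RMRP and RN7SL2 had sites. The genes named as vault RNAs (VTRNA1-1, VTRNA1-2, VTRNA1-3 and VTRNA2-1) and the Y RNAs RNY1, RNY3, RNY4 and RNY5 had no sites. Neither had the minor snRNAs RNU4ATAC and RNU6ATAC or RN7SK. VTRNA1-1 with 8 and RNY5 with 14 cytosines in MDA-MB-468 were deposited below the coverage minimum. TERC, the telomerase RNA, had 51 and 89 deposited cytosines but is annotated as a long noncoding RNA and was not taken. RPPH1, RN7SL1, SCARNA2, SNORD62A, RNU11 and RNU12 were not matched by name in the annotation used here.

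Of the 578 sites covered in both lines, 49 (8.48%) were called in both, against 0.621% of all shared kept sites, without matching for coverage. Only 1 was called in MCF10A alone, position 63 of MIR3648, and 27 in MDA-MB-468 alone. The median coverage of these sites was 44 in MCF10A against 205.5 in MDA-MB-468. When the counts of shared sites were thinned to the lower coverage of each pair, a median of 44 sites was called in MCF10A (44 to 45 in 20 draws) against 54 in MDA-MB-468 (50 to 62), so the gap narrowed at equal coverage. Over the 451 sites that had 20 or more counts in each library, Pearson's r of the ratios was 0.882 and Spearman's rho 0.512, as a description across sites that share molecules, genes and base composition. Among the 133 sites matching the rRNA repeat r was 0.974, and among the 318 others it was 0.661.

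**Figure D4:**
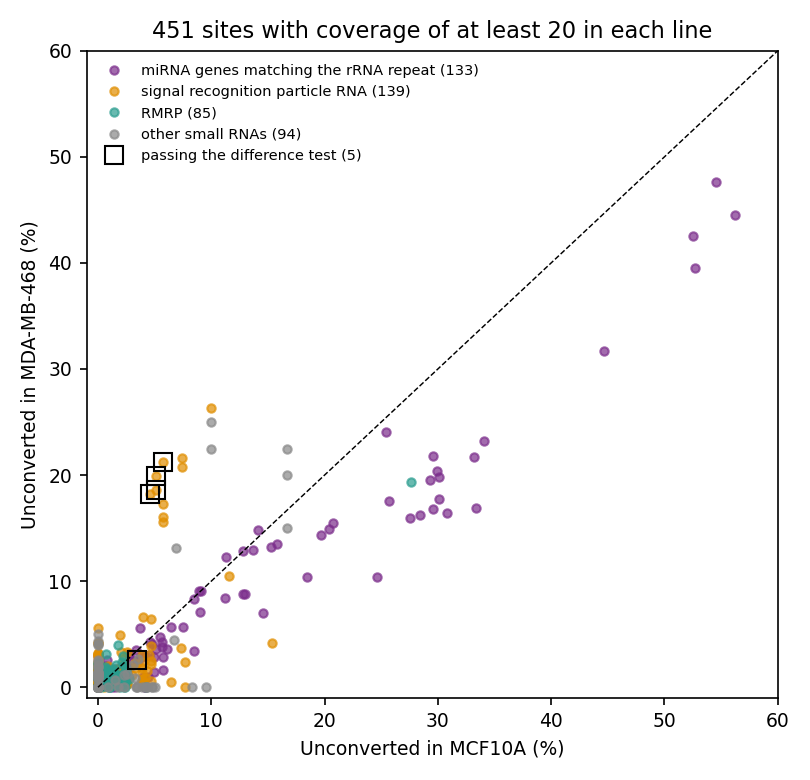
Unconverted share of counts in MDA-MB-468 (vertical axis, %) against MCF10A (horizontal axis, %) at the 451 small RNA sites covered by 20 or more counts in each line, by class, with equality as a dashed line and squares around the 5 sites that passed the difference test. Sites matching the rRNA repeat lie mostly below the line at high ratios, and a group of SRP RNA sites lies above it, near 5% on the MCF10A axis and 20% on the MDA-MB-468 axis.

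Predicted pairing and sequence context did not enter the call. In the fold predicted for each RNA at 70 degrees, 27 of 157 paired sites (17.2%) and 23 of 503 unpaired sites (4.57%) were called in MCF10A, and 46 of 288 (16.0%) and 47 of 825 (5.70%) in MDA-MB-468. MIR3648 held most of the paired calls in MCF10A, with 24 of 36 paired and 10 of 34 unpaired sites called. The called sites of AC079949.1 were all unpaired in the fold, and in RN7SL2 2 of its 9 called sites were paired in MDA-MB-468. Cytosines in the contexts CCG, CCC, GCC and GCG made up 32 of 50 called sites and 236 of all 660 in MCF10A. For MDA-MB-468 they made up 51 of 93 and 353 of 1113. No rule was given for choosing these contexts, which are part of those the paper reports as enriched. TCG was left out although 4 of 18 of its sites (22.2%) were called in MCF10A against 6 of 33 (18.2%) in MDA-MB-468. Those shares exceed the ones of GCG (7.94% against 10.8%) and CCC (9.38% against 11.7%). Every other context left out, GCA and ACG among them, had a lower share than GCG. An effect of context was not tested. A window of 51 nt that occurs elsewhere in the converted genome surrounded 155 sites, 27 of them called, in the MCF10A library and 210 sites, 38 called, in MDA-MB-468, and at these sites the counts may come from more than one locus. Neither the pairing nor the repeated windows were tested as a source of the unconverted counts.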

How the data were processed

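Bisulfite libraries of poly(A)+ RNA from MCF10A and MDA-MB-468 were analysed, 1 per line. The deposited counts per cytosine were made by the authors. By the paper's methods they trimmed reads, aligned them to hg19 with MeRanTK, called unconverted and converted bases, and capped duplicate reads at 10. The submitters' processing notes name Bismark and Trim Galore, without versions. The deposited tables began at a coverage of 5, where the paper gives a minimum of 10. Whether the cap holds for these counts is therefore not known, and high coverages are not molecule numbers. The tables summed to 76098976 counts for MCF10A and 90960018 for MDA-MB-468. No molecular identifiers were named, and intervals cover counting error only.

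Sites covered by 10 or more counts on same-strand exons of GENCODE release 44 (GRCh37) or the mitochondrial chromosome were kept, 1584002 for MCF10A and 1271253 for MDA-MB-468, and only nuclear small RNA sites are described. Calls came from a Fisher's exact test, one-sided, of each site against the pooled background, and differences the two-sided test, each with Benjamini-Hochberg adjustment (FDR 0.05) over all kept sites. Tests were checked on simulated counts drawn independently at each site, which does not cover the dependence between neighbouring sites. RNAs were folded with RNAfold (ViennaRNA 2.7.2, MEA 0.1, 70 degrees, pairing distance 150) without removal of paired sites, and matched to the rRNA scaffold with BLAST 2.17.0. Python 3.11.15 and scipy 1.17.1 were used. A stretch was a run of at least 3 called sites with gaps of at most 20 nt, a definition set after seeing the data. Low shares beside a stretch follow in part from this definition. The genes named were a list of 20, the 10 with most sites per line and each gene called in both lines; the sites named were the 5 of highest coverage with a ratio of at least 0.2 per line, 10 called in both lines and up to 10 of the largest differences that passed the test, of which there were 5. Other called genes and sites were named after their values were seen. The members and lists were chosen with earlier results of these data known. The sequence windows of RN7SL2 and RN7SL3 are not reported here.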

Additional observations from a re-analysis of the deposited data

How the results depend on the processing

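The number of called sites, 50 in MCF10A, 93 in MDA-MB-468 and 49 in both, stayed within 1.5 times under a coverage minimum of 20, a nuclear background, a background over all deposited sites, a binomial test, and without sites in other noncoding exons. With a ratio of at least 0.2 also required, 24, 37 and 11 sites were called. Without sites paired in the predicted fold 23, 47 and 23 were called, and the pooled unconverted share was 3.91% for MCF10A and 4.02% for MDA-MB-468. Without sites whose window is repeated in the genome 23, 55 and 23 were called, at 3.88% and 3.96%. Without genes matching the rRNA repeat, an alternative chosen after seeing the data, 6, 44 and 6 were called, at 1.42% and 2.16%. At shared sites thinned to equal coverage 44 and 54 were called in MCF10A and MDA-MB-468. The 5 differences became 1 without sites in other noncoding exons, which removed RN7SL2, and 3 without repeated windows; they stayed within 1.5 times under the score test, the coverage minimum of 20, without paired sites and without rRNA repeat matches. Alternatives that leave sites out count fewer sites by construction. Of 286 single-site comparisons over 40 named sites and lines, 263 kept their side of the threshold. The other 23 lost it, each under the ratio minimum of 0.2, which can only remove calls. The alternatives without paired sites, other noncoding exons, repeated windows or rRNA repeat matches reused the main calls. Their single-site comparisons could not change side, so the 263 include comparisons that test nothing.

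No paired analysis was possible because each line has 1 library. At a coverage of 10, a call needed a ratio of at least 40%.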
